A study of Homo sapiens with 12 samples.

Results

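Early replicating regions (ERRs) on chromosomes 4, 13 and 18 were described in U2OS-MycER cells by EdU-seq in hydroxyurea (EdU-HU-seq). All regions placed on these chromosomes in the 4 deposited lists were taken, 1 list for each condition. They numbered 247 of 3874 regions in shNT cells, 340 of 4653 in shNT cells with OHT, 327 of 4896 in shCDK12 cells and 341 of 4762 in shCDK12 cells with OHT, which made 1255 of 18185 over the lists. Chromosome 4 held 135, 185, 182 and 181 of them in that order, chromosome 13 held 50, 82, 63 and 81, and chromosome 18 held 62, 73, 82 and 79.

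U2OS is a human osteosarcoma cell line, and its MycER derivative expresses a fusion of the transcription factor Myc with the ligand-binding domain of the estrogen receptor, which 4-hydroxytamoxifen (OHT) activates. All samples received 1 µg/mL doxycycline, which induces a short hairpin RNA against no target (shNT) or against CDK12 (shCDK12), a kinase that acts on transcribing RNA polymerase II. OHT was given at 300 nM over 40 h or left out. All cells were then arrested for 8 h in 100 ng/mL nocodazole and released for 24 h into 25 µM EdU, a thymidine analogue that marks new DNA, and 2 mM hydroxyurea, which depletes nucleotides and keeps forks close to the origins that fired first. Each condition had 3 samples, but the authors called regions on their merged reads, so that there was 1 list per condition, no replicate error and no test. The assay measured no CDK12 level, and the silencing is taken from the labels.

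The genome is copied in a set order during S phase. Gene-rich, transcribed and open chromatin is copied early, and gene-poor chromatin, much of it at the nuclear periphery, is copied late. Chromosomes 4, 13 and 18 are known as gene-poor autosomes, and chromosomes 17, 19 and 22 as gene-rich ones. Chromosome 13 is acrocentric, and its short arm is not part of the assembled sequence. The hg38 annotation bore the label out: chromosome 13 had 2.82 protein-coding genes per Mb, chromosome 18 had 3.31 and chromosome 4 had 3.98, the 3 lowest values of the 22 autosomes. Together they had 3.50 genes per Mb against 7.13 on the 19 other autosomes. These densities are over the full chromosome length, which for chromosome 13 includes the short arm, while coverage below is set against a shorter span. Positions of the regions are on hg19, so that overlap with single genes was not analysed here.

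The lists differed in reads. Over the whole series the regions held 19042128 reads for shNT, 51968675 for shNT + OHT, 14926387 for shCDK12 and 30559372 for shCDK12 + OHT, and on chromosomes 4, 13 and 18 they held 515811, 1491860, 399065 and 992405. Reads inside regions are not a library's depth, and the part of sequencing depth in the differences between lists was not tested. Intervals below are 95% intervals (Wilson for shares, order statistics for medians) that allow for counting error and for how regions of a list vary, but not for variation between cultures, since regions are not replicates of a condition.

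Chromosomes 13, 4 and 18 were the least covered autosomes in all 4 lists. Their regions covered 18.5 Mb in shNT cells, 22.2 Mb with OHT, 19.1 Mb in shCDK12 cells and 26.3 Mb in shCDK12 cells with OHT. Set against the span from the first to the last region of any list, this was 5.09%, 6.10%, 5.25% and 7.24%, where the other autosomes had 17.5%, 19.3%, 17.9% and 21.5%. The other autosomes were thus covered 3.44-fold, 3.16-fold, 3.41-fold and 2.98-fold more densely. The 3 chromosomes made up 13.1% of the autosomal span, but only 4.20%, 4.56%, 4.23% and 4.82% of the covered length and 2.99%, 2.98%, 3.02% and 3.47% of the reads in autosomal regions.

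The order among the 3 did not depend on the list. Chromosome 13 was covered over 3.92%, 5.02%, 3.75% and 5.39% of its span in the order shNT, shNT + OHT, shCDK12 and shCDK12 + OHT. Chromosome 4 followed with 5.10%, 6.21%, 5.30% and 7.34%, and chromosome 18 with 6.51%, 7.18%, 6.97% and 9.25%. The next autosome was chromosome 6 in each list, with 9.50%, 10.7%, 9.43% and 12.6%, and the most covered was chromosome 22, with 52.5%, 57.2%, 57.4% and 66.0%. Across the 22 autosomes coverage went with gene density, with a Spearman rho of 0.876, 0.876, 0.864 and 0.844. These rho values are a description over chromosomes that share their libraries. They set gene density over the full length against coverage over the span, which differ most on acrocentric chromosomes such as 13.

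**Figure D1:**
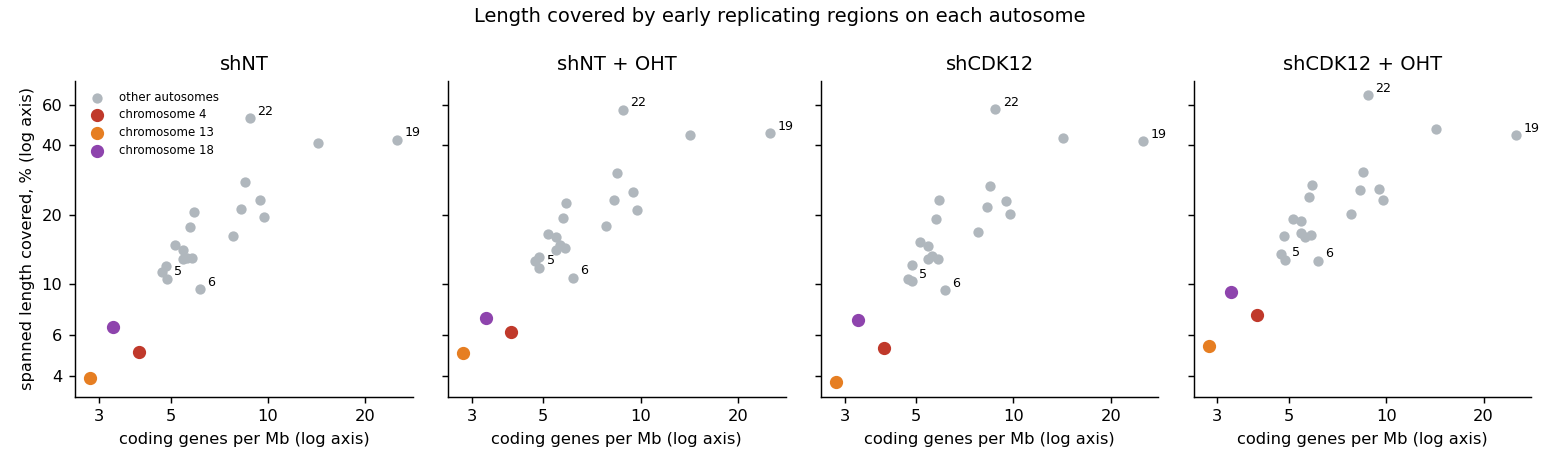
Percent of the spanned length covered by early replicating regions (vertical, log axis) against protein-coding genes per Mb of full chromosome length (horizontal, log axis) for the 22 autosomes, 1 panel per list. Chromosomes 13, 4 and 18 sit at the lower left of every panel, between 3.75% and 9.25% covered, below chromosome 6 at 9.43% to 12.6%.

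Low coverage came with fewer as well as narrower regions. There were 0.679, 0.935, 0.899 and 0.937 regions per Mb of span on chromosomes 4, 13 and 18, against 1.47, 1.75, 1.85 and 1.80 on the other autosomes. Median region width was 59.2 kb (interval 54.8 to 66.0) in shNT cells, 48.0 kb (42.8 to 51.2) with OHT, 43.6 kb (40.4 to 47.2) in shCDK12 cells and 53.6 kb (50.8 to 56.8) in shCDK12 cells with OHT. The other autosomes had medians of 76.0, 62.8, 58.0 and 72.8 kb, above the upper limit of those intervals in every list. Chromosomes 4 and 13 had the narrowest regions of the 22 autosomes in each list, with medians between 41.8 and 57.2 kb and between 40.8 and 59.8 kb. Chromosome 18, at 65.2, 58.8, 46.4 and 56.8 kb, had an interval that reached the median of the other autosomes in every list.

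Broad regions were scarce there. Regions over 200 kb wide numbered 7, 10, 9 and 17 on the 3 chromosomes, which was 2.83%, 2.94%, 2.75% and 4.99% of their regions. On the other autosomes such regions made up 14.7%, 14.1%, 11.3% and 15.2%. The widest region of chromosome 13 lay at the same place in all lists, near the end of the long arm: it ran over 339.6 kb at chr13:113503601-113843200 in shNT cells, 366.8 kb with OHT, 324.0 kb in shCDK12 cells and 394.0 kb in shCDK12 cells with OHT. On chromosome 4 the widest was at chr4:8065601-8368400 in shNT cells (302.8 kb), and regions overlapping it were the widest with OHT (465.6 kb) and in shCDK12 cells (292.8 kb). In shCDK12 cells with OHT it was another place, chr4:40164401-40962000, that held the widest region, at 797.6 kb. Chromosome 18 likewise had its widest region of any list in shCDK12 cells with OHT, 762.8 kb at chr18:2961601-3724400, where the widest of the other lists were chr18:8787201-9108400 for shNT (321.2 kb), chr18:56062401-56343600 for shNT + OHT (281.2 kb) and chr18:56066001-56344000 for shCDK12 (278.0 kb).

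Covered length was concentrated in a few stretches, which on chromosomes 4 and 13 lay above all at one end. When each chromosome was cut into 20 equal parts, the 4 fullest parts held between 61.1% and 63.6% of the covered length on chromosome 4, 64.6% to 74.4% on chromosome 13 and 65.1% to 71.8% on chromosome 18. On chromosome 4 the fullest part was the first in every list, chr4:641601-10161740 at the tip of the short arm, covered over 32.1%, 40.6%, 30.6% and 38.2%. On chromosome 13 it was the last, chr13:110340561-115110000, covered over 36.1%, 39.7%, 33.4% and 40.1%. These stretches were covered more than the other autosomes as a whole, and the rest of each chromosome held long empty tracts.

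Chromosome 18 was divided otherwise. The first part was covered over 21.6%, 22.9%, 27.7% and 36.6%, and the fourth, chr18:11756641-15654320, over 20.8%, 25.3%, 29.0% and 38.0%, so that both, on the short arm and near the centromere, were fullest in shCDK12 cells with OHT. The part at chr18:54631121-58528800 on the long arm varied less between lists, with 24.1%, 24.9%, 23.4% and 23.8%. Parts 7 to 11 held no region in any list.

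**Figure D2:**
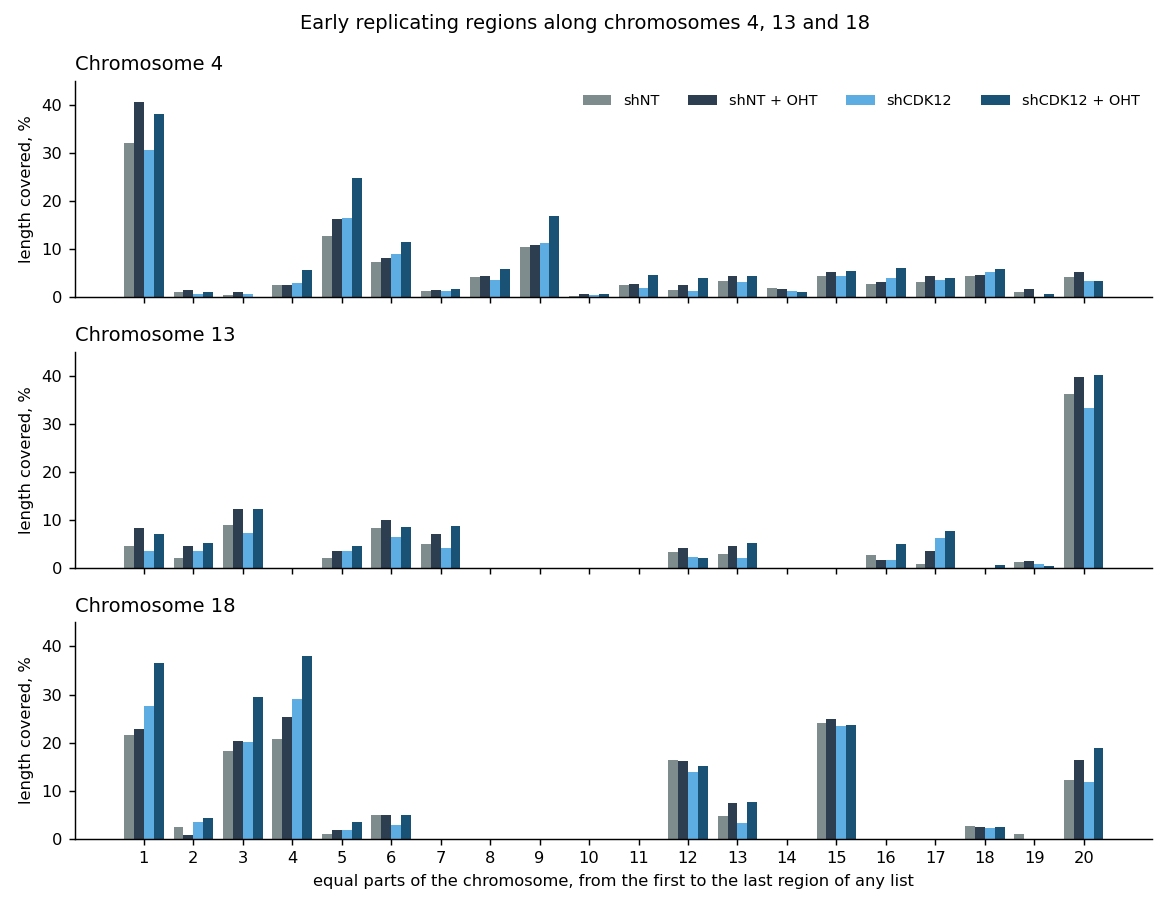
Percent of length covered (vertical, from 0) in 20 equal parts of chromosomes 4, 13 and 18 (horizontal, from the first to the last region of any list), with 1 bar for each of the 4 lists. Coverage peaks in part 1 of chromosome 4 (30.6% to 40.6%) and part 20 of chromosome 13 (33.4% to 40.1%), and parts 7 to 11 of chromosome 18 are empty in all lists.

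The longest stretch without a region in any list ran over 21.8 Mb on chromosome 18 (chr18:21462801-43304400), 14 Mb on chromosome 13 (chr13:80821201-94864800) and 10.4 Mb on chromosome 4 (chr4:129501601-139904800). Gaps of over 1 Mb between neighbouring regions took up 84.3%, 80.8%, 82.1% and 79.9% of the span of the 3 chromosomes. On the other autosomes they took up 60.1%, 55.8%, 57.1% and 55.4%. Chromosomes 4, 13 and 18 ranked highest of the 22 autosomes by this share in every list, and the nearest other autosome had 74.3% (chromosome 21, shNT), 71.1% (chromosome 6, shNT + OHT), 73.6% (chromosome 21, shCDK12) and 68.8% (chromosome 5, shCDK12 + OHT).

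Typical spacing was wider as well. The median gap was 244 kb (interval 171 to 341) in shNT cells, 145 kb (119.6 to 186) with OHT, 137 kb (108 to 186) in shCDK12 cells and 132 kb (113 to 164) in shCDK12 cells with OHT. Other autosomes had 116, 105, 86.0 and 81.6 kb, below all of these intervals. The shNT list thus had the widest spacing on the gene-poor chromosomes, and the remaining lists lay within each other's intervals. By chromosome the order was less firm: chromosome 13 had medians of 260.4, 157, 271 and 147 kb, chromosome 4 had 248, 161, 139.6 and 132 kb, and chromosome 18, with 169, 129, 96.8 and 111 kb, had intervals that reached the median of the other autosomes in the 3 lists other than shNT, as did that of chromosome 13 (from 104 kb) in shNT + OHT.

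**Figure D3:**
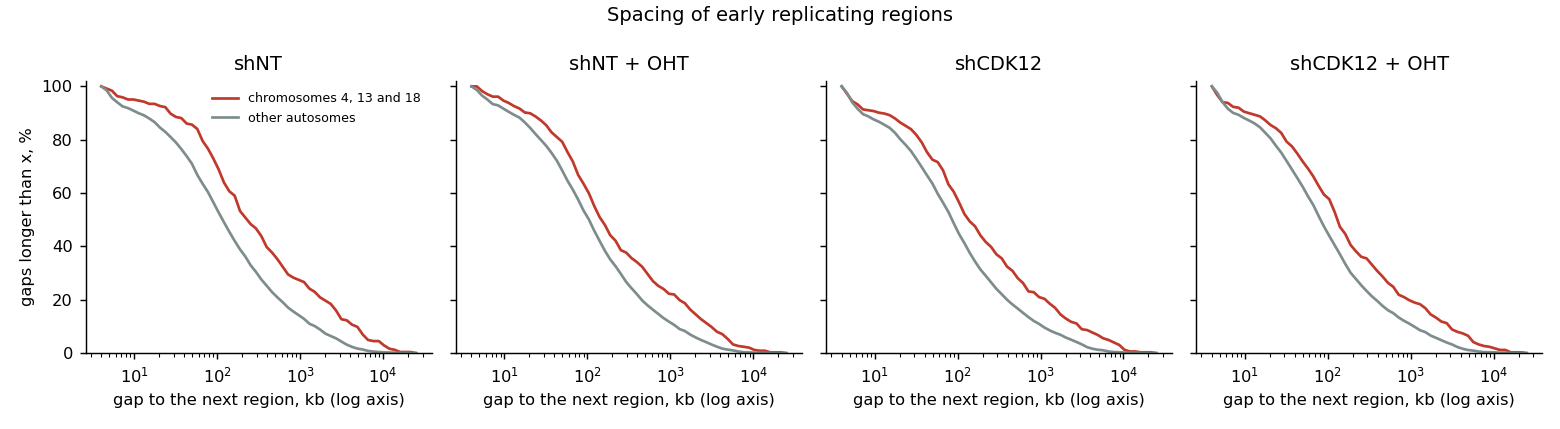
Percent of gaps longer than a given length (vertical) against gap length in kb (horizontal, log axis), 1 panel per list, with chromosomes 4, 13 and 18 in red and the other autosomes in grey. The red line runs to the right of the grey one over most of the range, with medians of 244 against 116 kb in shNT cells and 132 against 81.6 kb in shCDK12 cells with OHT.

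A region was called isolated when no other region of its list lay within 500 kb. In shNT cells 40 of the 247 regions were isolated, 16.2% (interval 12.1 to 21.3), and with OHT 44 of 340, 12.9% (9.78 to 16.9). In shCDK12 cells there were 38 of 327, 11.6% (8.58 to 15.5), and with OHT 37 of 341, 10.9% (7.98 to 14.6). Other autosomes had 7.97%, 6.48%, 6.02% and 5.12%, each below the interval of the gene-poor chromosomes. High isolation was not particular to them: chromosome 6 reached 16.2%, 15% and 16.5% in the first 3 lists and chromosome 21 14.5% in shCDK12 + OHT, while chromosome 18 had 14.5%, 8.22%, 7.32% and 6.33%.

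Isolated regions were narrower than the rest. Their median width on chromosomes 4, 13 and 18 was 40.4, 29.0, 28.4 and 39.6 kb, against 63.2, 48.8, 45.2 and 55.4 kb for regions with a neighbour. Isolated regions of other autosomes had nearly the same medians, 41.2, 30.8, 29.6 and 38.6 kb. Of the 40 isolated regions of shNT cells, 28 (70.0%, interval 54.6 to 81.9) lay at a place held by all 4 lists, against 182 of 207 (87.9%, 82.8 to 91.7) of those with a neighbour. The other autosomes showed the same contrast, 75.6% against 92.7%, of which the first lay inside the interval of the gene-poor chromosomes and the second above it. For isolated regions of shCDK12 cells with OHT the share was 51.4% (35.9 to 66.6) against 66.7%, just above the interval. In shNT + OHT and shCDK12 the value of the other autosomes lay inside it.

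The most remote region differed by list. In shNT cells it was a single 400 bp window at chr13:58135601-58136000 with 174 reads, 5175 kb from its nearest neighbour, and a region stood there in the 3 other lists too. With OHT it was chr18:68012401-68108000, 95.6 kb wide with 7492 reads and 6650 kb from its neighbour, and in shCDK12 cells with OHT it was chr4:30722001-30878000, 156.0 kb wide with 4106 reads and 6799 kb from its neighbour. Both of these were also held by every other list. The most remote region of shCDK12 cells, chr13:66334801-66335200, was a single window of 47 reads that no other list held.

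Regions of the gene-poor chromosomes also carried fewer reads for their length. Reads per kb of covered length were 27.8 in shNT cells, 67.2 with OHT, 20.9 in shCDK12 cells and 37.7 in shCDK12 cells with OHT, against 39.6, 104, 29.6 and 53.0 on the other autosomes. Read counts were not scaled to library size, so that lists were compared only by the ratio to the other autosomes, which was 0.703, 0.644, 0.705 and 0.711. By chromosome the ratio ran from 0.625 to 0.687 on chromosome 4, 0.663 to 0.726 on chromosome 13 and 0.669 to 0.779 on chromosome 18. They were the 3 lowest autosomes except in shCDK12 cells with OHT, where chromosome 5 at 0.770 lay below chromosome 18 at 0.779. Taken over single regions the distance was smaller, with a ratio of the medians of 0.870, 0.821, 0.866 and 0.853. By these medians the 3 chromosomes were the lowest only in shNT + OHT. Chromosome 6 was the lowest in shNT (19.5 reads per kb). It also lay below chromosome 18 in shCDK12 (15.2 against 15.3) and in shCDK12 + OHT (29.2 against 30.5).

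The densest region of at least 10 kb lay beside the centromere of chromosome 4 in every list. It was chr4:49632001-49660000 with 173 reads per kb in shNT cells, chr4:49633201-49660000 with 392.4 and 338 reads per kb in the 2 lists with OHT, and chr4:49093201-49162800 with 137 reads per kb in shCDK12 cells. Satellite repeats surround human centromeres, and reads in repeats were not analysed here.

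**Figure D4:**
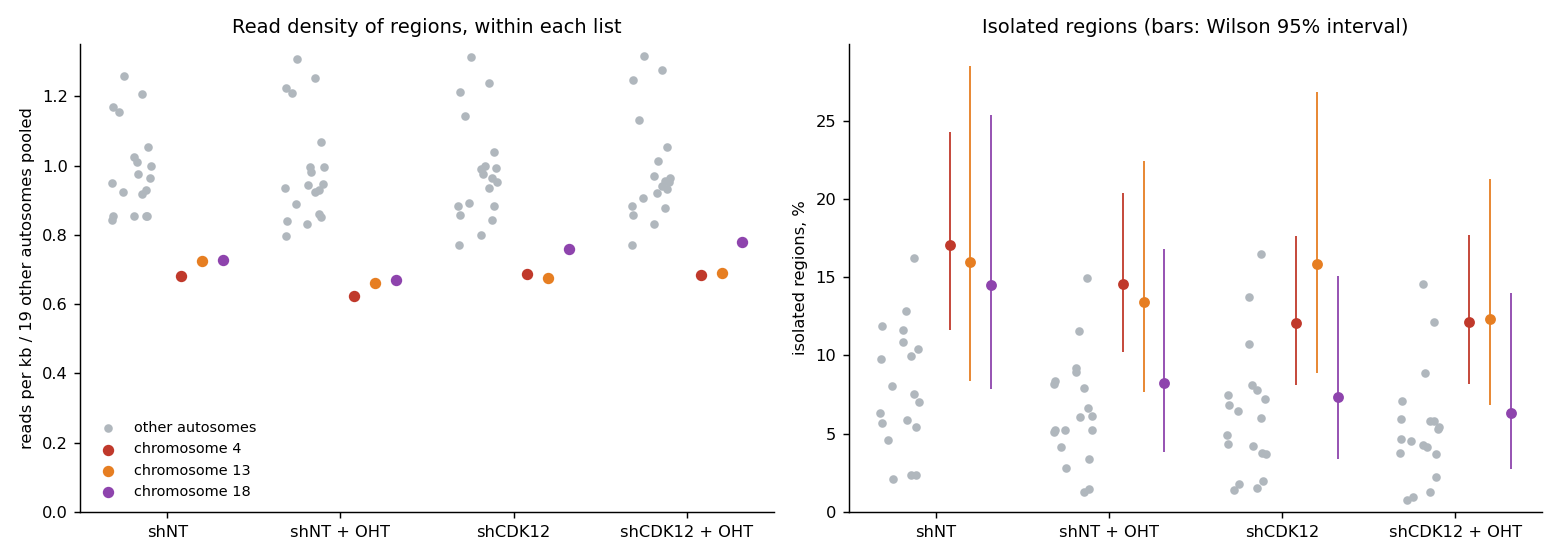
Left, reads per kb of each autosome's regions over that of the 19 other autosomes pooled (vertical, from 0); right, percent of regions with no neighbour within 500 kb, with Wilson 95% intervals for chromosomes 4, 13 and 18. The 3 gene-poor chromosomes lie between 0.625 and 0.779 on the left, and on the right between 6.33% and 17%.

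The 4 comparisons that differ in a single factor were these: OHT in shNT cells, OHT in shCDK12 cells, and silencing of CDK12 without and with OHT. They ask where MycER activation or silencing of the kinase alters early firing. They share lists, so that they are not independent of each other. A region of the second list that overlapped no region of the first by at least 1 bp was counted as gained, and a region of the first list without overlap in the second as lost.

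With OHT in shNT cells, gene-poor chromosomes gained regions at a higher rate than other autosomes. Of the 340 regions, 101 were gained, 29.7% (interval 25.1 to 34.8), against 21.2% of all regions of the list and 20.5% on the other autosomes. With lists of equal size the share was 12.8% against 9.44%. Chromosome 13 gained 33 of 82 (40.2%) and chromosome 4 54 of 185 (29.2%), the 2 highest shares of the 22 autosomes, while chromosome 18 gained 14 of 73 (19.2%), inside the range of the other autosomes of 16.7% to 25.0%. For their length, however, the gene-poor chromosomes gained less, 27.8 regions per 100 Mb of span against 35.8. In each of the 4 comparisons, chromosomes 4, 13 and 18 each lay below the median of the other autosomes by this measure. Only 4 of the 247 shNT regions were lost, 1.62%, near the 1.6% of all regions, and with lists of equal size 6.07% against 4.82% on the other autosomes.

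Covered length with OHT in shNT cells was 1.28-fold on chromosome 13 and 1.22-fold on chromosome 4, above the 1.07-fold to 1.14-fold of the 19 other autosomes. Chromosome 18, at 1.10-fold, was at their median of 1.10. Gained regions made up 3.31 Mb of the 22.2 Mb covered in the OHT list, 14.9%, against 6.17% on the other autosomes. They were short and thin, with medians of 29.0, 31.2 and 30.2 kb on chromosomes 4, 13 and 18, where regions shared with shNT had 54.8, 49.2 and 70.8 kb, and over the 3 chromosomes 33.5 reads per kb against 52.9. Matched regions, which overlapped exactly 1 region of the other list in both directions, had a median log2 width ratio of 0.00 (interval -0.05 to 0.02, 216 pairs). There were 15 pairs at least 1.5-fold wider (6.94%, where all autosomal pairs had 4.74%) and 8 at least 1.5-fold narrower (3.70% against 3.61%).

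Gains with OHT often stood far from any shNT region. Of the 101, 31 lay over 500 kb from the nearest shNT region, 30.7% (interval 22.5 to 40.3) against 16.1% on the other autosomes. These were on chromosome 4 (17 of 54) and chromosome 13 (14 of 33), with 0 of 14 on chromosome 18, which allows a share of up to 21.5%. Such gains were not particular to them: chromosome 21 had the highest share of the 22 autosomes, 42.9%, beside 42.4% on chromosome 13 and 31.5% on chromosome 4. The part of the wider spacing of shNT regions there (median gap 244 against 116 kb) was not tested. The widest gained region was chr4:1247201-1356000, 108.8 kb with 3812 reads and 32.8 kb from the nearest shNT region, and the widest lost one was chr18:6537201-6596400, 59.2 kb.

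In the lists as deposited, OHT in shCDK12 cells went with a larger ratio of covered length on these chromosomes than the other comparisons, 1.38-fold over the 3 together against 1.20-fold for OHT in shNT cells. That order turned above the median score (1.25-fold against 1.40-fold) and when regions up to 100 kb apart were joined (1.27-fold against 1.30-fold). By chromosome, covered length was 1.44-fold on chromosome 13, 1.38-fold on chromosome 4 and 1.33-fold on chromosome 18, where the other autosomes ran from 1.06-fold on chromosome 19 to 1.34-fold on chromosome 6. Of the 341 regions of the second list, 77 were gained, 22.6% (18.5 to 27.3), against 15.5% of all its regions and 15% on the other autosomes, and with a common minimum score 37.0% against 25.8%. Chromosome 13 again stood highest with 26 of 81 (32.1%), chromosome 4 had 40 of 181 (22.1%) and chromosome 18 had 11 of 79 (13.9%), while chromosome 6 had 25.3%. Lost regions were 29 of 327, 8.87% against 6.45% of all regions. They made up 2.18% (other autosomes 1.93%) with a common minimum score and 23.9% (7.18%) when each list was cut at its own median score. Against the full shCDK12 + OHT list, only 2 of the 117 regions above that median were lost, 1.71% (other autosomes 1.18%).

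Gains were only part of that difference, since the net difference was 7.21 Mb and gained regions covered 3.86 Mb. Matched regions were wider in the OHT list, with a median log2 width ratio of 0.12 (interval 0.08 to 0.17, 216 pairs) against 0.11 on the other autosomes. Of these pairs 44 were at least 1.5-fold wider (20.4%, where all autosomal pairs had 19.9%) and 6 at least 1.5-fold narrower (2.78% against 1.91%), so that the shared regions of the gene-poor chromosomes did not stand apart from the background. Another 30 regions of the OHT list (8.80%, against 12.3% on the other autosomes) each joined several regions of shCDK12 cells. Of the 77 gains 17 lay over 500 kb away, 22.1% (14.3 to 32.5) against 14.8%. The widest gain was chr4:152034401-152187600, 153.2 kb with 3107 reads and only 10.8 kb from a region of shCDK12 cells, and the widest loss chr13:42578401-42620800, 42.4 kb.

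In the lists as deposited, silencing of CDK12 without OHT left covered length nearly level but with more, narrower regions. The 3 chromosomes together had 1.03-fold the covered length of shNT cells, as against 1.02-fold on the other autosomes, and chromosome 13 had 0.957-fold, the second lowest of the 22 after chromosome 21. Regions gained numbered 88 of 327, 26.9% (22.4 to 32.0), against 20.2% of all regions and 19.8% on the other autosomes, and 27 of 247 were lost, 10.9% (7.62 to 15.4), against 6.07% of all regions. Chromosome 13 had the highest share of gains of the 22 autosomes, 31.7%, and of losses, 16%. Chromosome 15 followed with 28.4% gained, above chromosome 4 (26.4%) and chromosome 18 (24.4%). Chromosome 3 had 13.4% lost, above chromosome 4 (10.4%) and chromosome 18 (8.06%). Matched regions were narrower, with a median log2 width ratio of -0.09 (interval -0.13 to -0.06, 182 pairs) against -0.04 on the other autosomes. There were 26 pairs at least 1.5-fold narrower (14.3%, where all autosomal pairs had 9.91%) and 10 at least 1.5-fold wider (5.49% against 4.97%). Under filters on the deposited score the region count and covered length turned the other way. Whether the lists share a score scale is not stated, so a common minimum need not match regions of like strength. With a common minimum score shCDK12 had 229 regions against 247 in shNT, 0.888-fold the covered length (other autosomes 0.963-fold), 11.4% gained (8.58%) and 20.6% lost (12.9%). With lists of equal size it had 233 regions, 0.896-fold the covered length (0.967-fold), 12% gained (9.11%) and 19.8% lost (12.1%).

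In addition, 25 shNT regions (10.1%) were split into several in shCDK12 cells, close to the 10.4% of other autosomes. Of the 88 gains 27 lay over 500 kb from any shNT region, 30.7% (22 to 41.0) against 14.4%, and 11 of the 20 gains of chromosome 13 did. The widest gain was chr4:151929601-152023600, 94.0 kb with 1612 reads, and the widest loss chr13:20912401-21008800, 96.4 kb.

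Silencing with OHT had gains closer to those of other autosomes in the lists as deposited. Gained regions were 60 of 341, 17.6% (13.9 to 22), against 14.8% of all regions and 14.6% on the other autosomes, and the interval held both. With a common minimum score the shares lay further apart, 22.9% against 17.1%, as they did with joined regions, 16.5% against 11.3%. The 3 chromosomes lay close together, at 17.7%, 17.3% and 17.7% for chromosomes 4, 13 and 18. Losses were 53 of 340, 15.6% (12.1 to 19.8), against 11.5% of all regions, with chromosome 13 highest of the 22 autosomes at 18 of 82 (22%) and chromosome 18 at 6 of 73 (8.22%). When each list was cut at its own median score, the share lost was 33.3% against 11.9% on the other autosomes. A region then counts as lost also where its counterpart falls below the cut. Against the full shCDK12 + OHT list, 0 of these 132 regions were lost (other autosomes 0.790%).

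Covered length in this comparison was distributed differently: chromosome 18 had the highest ratio of all autosomes, 1.29-fold, and chromosomes 4 and 13 had 1.18-fold and 1.07-fold, with other autosomes between 0.978-fold and 1.23-fold. Over the 3 together it was 1.19-fold, and above the median score 0.990-fold. Matched regions had a median log2 width ratio of 0.07 (interval 0.02 to 0.15, 227 pairs) against 0.04 on the other autosomes, with 43 pairs at least 1.5-fold wider (18.9%, where all autosomal pairs had 17.3%) and 14 at least 1.5-fold narrower (6.17% against 3.59%). Gains over 500 kb from any region of shNT + OHT were about as common as elsewhere, 8 of 60 or 13.3% against 13.1%, but fewer lay within 100 kb of one, 22 of 60 or 36.7% against 54.3%. The widest gain was again chr4:152034401-152187600, which no other list held, and the widest loss chr4:157848401-157932400, 84.0 kb.

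**Figure D5:**
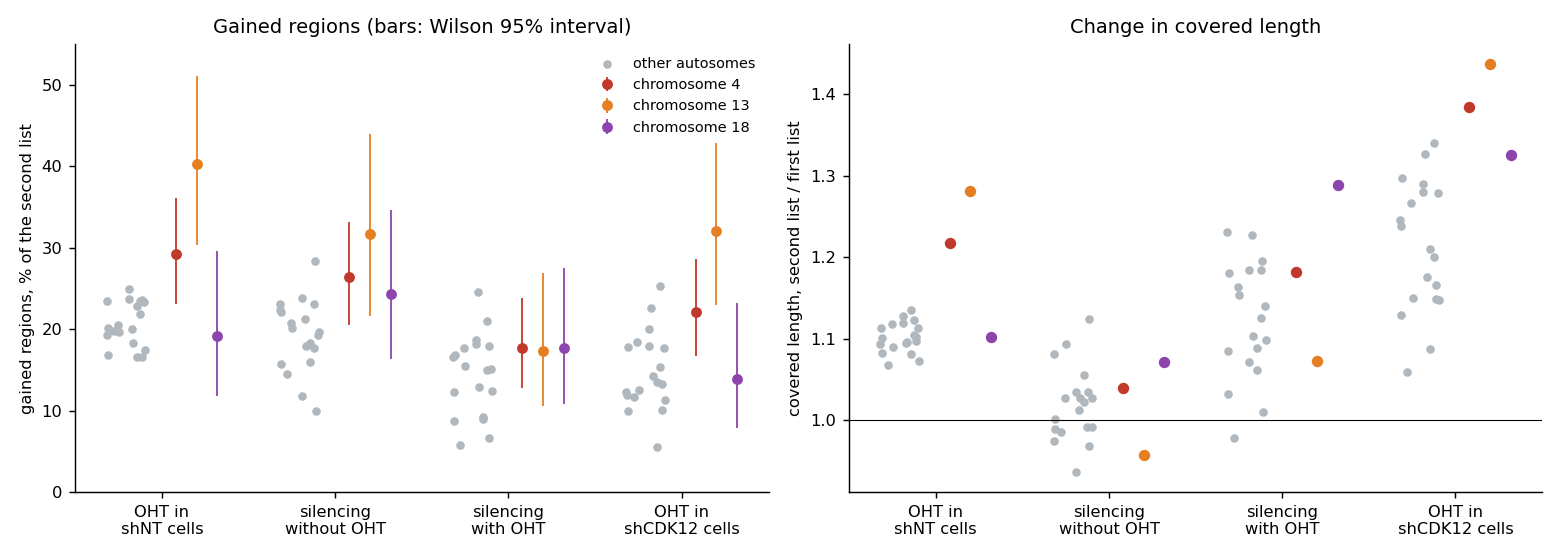
Left, gained regions as percent of the second list (vertical, from 0) for each autosome in the 4 comparisons, with Wilson 95% intervals for chromosomes 4, 13 and 18; right, covered length of the second list over the first. Chromosome 13 is highest on the left in 3 comparisons (40.2%, 31.7% and 32.1%) and highest on the right for OHT in shNT cells (1.28-fold) and in shCDK12 cells (1.44-fold).

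Gained and lost regions were mostly those with a low deposited score, the authors' own value for a region, and such regions were common on the gene-poor chromosomes. Of their regions, 61.2% (list shNT + OHT), 64.2% (list shCDK12) and 69.2% (list shCDK12 + OHT) had a score at or below the median of the list, against 49.0%, 48.6% and 49.2% on the other autosomes. Of the gained regions 101 of 101, 85 of 88, 60 of 60 and 77 of 77 were low-score ones in the comparisons OHT in shNT cells, silencing without and with OHT, and OHT in shCDK12 cells. Among these low-score regions the share gained was 48.6% (41.9 to 55.3) against 41.9% with OHT in shNT cells, 40.5% (34.1 to 47.2) against 39.5% for silencing without OHT, 25.4% (20.3 to 31.3) against 29.2% for silencing with OHT, and 32.6% (27.0 to 38.8) against 30.1% with OHT in shCDK12 cells. Each interval held the value of the other autosomes, though that of the first comparison only just. On chromosome 13 alone, 33 of 57 low-score regions were gained with OHT in shNT cells (57.9%, 44.98 to 69.8), an interval above the 41.9% of the other autosomes. The intervals of chromosome 4 (48.2%, 39.2 to 57.4) and chromosome 18 (35.9%, 22.7 to 51.6) held that value. Chromosome 13 had 43.5% (30.2 to 57.8) for silencing without OHT and 21.5% (13.3 to 33.0) with OHT. It had 40.0% (29.0 to 52.1) for OHT in shCDK12 cells. These intervals too held the value of the other autosomes. The share lost among low-score regions was 17.5% (12.3 to 24.3) against 11.3% for silencing without OHT, which lay outside the interval. It was 25.5% (20.04 to 31.8) against 21.3% for silencing with OHT and 12.9% (8.99 to 18.1) against 11.1% for OHT in shCDK12 cells. For OHT in shNT cells it was lower than on the other autosomes, 1.95% (0.665 to 5.57) against 2.65%. Among regions under 30 kb wide, 64.1% (53.0 to 73.9) were gained with OHT in shNT cells against 51.5% on the other autosomes, again outside the interval. The comparisons within low scores and width bands were chosen after the data were seen. The part of a region's strength in the higher share of gains was not otherwise tested.

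Places were then formed by merging the 4 lists. There were 383 places on chromosomes 4, 13 and 18, covering 30.7 Mb or 8.45% of the span, and 187 of them, 48.8% (43.9 to 53.8), held a region in every list. On the other autosomes 61.0% of places did. Chromosome 13 had the lowest share, 38 of 97 (39.2%, 30.1 to 49.1), chromosome 4 had 101 of 204 (49.5%, 42.7 to 56.3), and chromosome 18, with 48 of 82 (58.5%, 47.7 to 68.6), had an interval that included the other autosomes. The places common to all lists held 71.5% of the merged length, with a median width of 89.2 kb.

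Of the remaining places, 39 (10.2%) were held only by shCDK12 + OHT, 22 (5.74%) only by shNT + OHT, 13 (3.39%) only by shCDK12 and 1 (0.261%) only by shNT, where the other autosomes had 9.25%, 4.55%, 2.22% and 0.510%. The share held only by shCDK12 + OHT was thus near that of the other autosomes, 9.25% being inside its interval of 7.54 to 13.6. Another 35 (9.14%) were missing only from shNT, against 7.78% on the other autosomes. The pattern of presence in both OHT lists and in neither list without OHT was found at 25 places, 6.53% (4.46 to 9.46), against 3.50% elsewhere, and 10 of these were on chromosome 13, 13 on chromosome 4 and 2 on chromosome 18. A raised share was not particular to this pattern. Places held by just shNT + OHT and shCDK12 made up 2.09% (1.06 to 4.07) against 0.865%. Places missing only from shCDK12 made up 2.61% (1.42 to 4.74) against 1.11%. Those missing only from shCDK12 + OHT were not raised, with 1.57% (0.720 to 3.38) against 1.75%. The 13 places held only by shCDK12 had a median width of 0.8 kb, whereas the 39 held only by shCDK12 + OHT had one of 44.8 kb.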

How the data were processed

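The labels describe 12 EdU-HU-seq samples, 3 for each of 4 conditions. The analysis used 4 deposited lists of broad regions, 1 per condition, made by the authors from merged replicates. Per the labels, the submitters' processing notes name BWA 0.6.2, SAMtools and SICER and the builds hg19 and mm10, without giving their roles. In the files every region limit fell on 400 bp steps and the shortest gap was 4400 bp, so that up to 4000 bp without signal was bridged. Positions ran past hg38 ends on 13 of 22 autosomes but past no hg19 end, and are printed counted from 1.

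The deposited read counts are whole numbers per region that sum the merged replicates without scaling to depth. A deposited score is the authors' own value per region, at most 1000 per window, and was used only to rank and filter regions. No measured column was left unused (0).

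Widths, gaps, coverage of the span, reads per kb and overlaps of at least 1 bp were computed with Python 3.11.15, numpy 2.4.6, pandas 2.3.3 and scipy 1.17.1, drawn with matplotlib 3.10.9, and tested on simulated data. With 1 list per condition no test was made. Shares carry Wilson 95% intervals and medians 95% intervals from binomial order statistics. Regions are named by rule: the widest of each list and chromosome, the longest stretch without a region, the densest of at least 10 kb and the most remote of each list, and the widest gained and lost in each comparison. The chromosomes and this rule were chosen with earlier results of these data known. Copy number of each chromosome in this cell line, which scales reads, and overlap with genes were not analysed here. Alternatives were a common minimum score, lists of equal size, regions above the median score, joining over gaps, a width minimum, other overlap and isolation rules, hg19 lengths, medians over single regions and leaving out gene-dense chromosomes.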

Additional observations from a re-analysis of the deposited data

Results flagged for a closer look

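Some measures of chromosomes 4, 13 and 18 moved in opposite directions under the same contrast in the 2 backgrounds. With 1 merged list per condition none of these differences was tested. Median width differed by -11.2 kb with OHT in shNT cells and was 10 kb greater with OHT in shCDK12 cells. With silencing it differed by -15.6 kb without OHT and was 5.6 kb greater with OHT. Reads per kb relative to the other autosomes differed by -0.0590 with OHT in shNT cells, and by 0.00597 with OHT where CDK12 was silenced.

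Numbers of regions showed the same kind of split. Chromosome 4 had 50 more regions with OHT in shNT cells and a difference of -1 in shCDK12 cells, and 47 more with silencing without OHT and a difference of -4 with OHT. Chromosome 13 had 13 more with silencing without OHT and a difference of -1 with OHT, while its covered length differed by -0.161 Mb and by 0.35 Mb in those comparisons. Chromosome 18 had 11 more regions with OHT in shNT cells and a difference of -3 in shCDK12 cells. These contrasts use the same 4 lists, so that they are not separate observations.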

How the results depend on the processing

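No paired analysis was possible because the deposited lists merge the replicates, for the same reason no replicate could be left out, and no result came from a test. Of 260 values recomputed under alternatives, 172 stayed within their interval or within 1.5-fold, 85 moved beyond it and 3 turned to the other side of 1. The counts that follow include the main values beside the alternatives. Against the other autosomes, coverage was lower in 28 of 28 values, median width lower in 24 of 24 and the median gap longer in 24 of 24. Isolation was higher in 32 of 32 and relative reads per kb below 1 in 32 of 32. The share gained was higher in 38 of 40, the share lost in 35 of 40 (all 5 exceptions for OHT in shNT cells) and the covered length ratio in 21 of 24 (all 3 exceptions for silencing). The cause of these moves was not tested, beyond what an alternative removes or joins by construction.

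The covered length ratio turned for silencing without OHT, to 0.888 with a common minimum score and 0.896 with lists of equal size, and for silencing with OHT to 0.990 above the median score. With a common minimum score of 146, median width was 51.6 kb (shNT + OHT) and 55.6 kb (shCDK12), the shares gained were 20.7% for OHT in shNT cells, 11.4% and 22.9% for silencing without and with OHT and 37.0% for OHT in shCDK12 cells, and the shares lost 20.6% for silencing without OHT and 2.18% for OHT in shCDK12 cells. With the 3874 highest-scoring regions of each list, median width was 56.4 kb (shNT + OHT), 54.8 kb (shCDK12) and 68.0 kb (shCDK12 + OHT), and shNT + OHT had a median gap of 202 kb and 17.1% isolated regions. Shares gained and lost were then 12.8% (other autosomes 9.44%) and 6.07% for OHT in shNT cells and 12% and 19.8% for silencing without OHT. Under either setting, each share gained or lost given here was above that of the other autosomes.

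Above the median score, in the order shNT, shNT + OHT, shCDK12 and shCDK12 + OHT, there were 93, 132, 117 and 105 regions covering 2.75%, 3.84%, 3.03% and 3.80%, with median widths of 98.8, 89.4, 84.0 and 115.6 kb, median gaps of 552, 340.4, 393 and 337 kb and 31.2%, 27.3%, 29.1% and 26.7% isolated. The shares lost were 33.3% for silencing with OHT and 23.9% for OHT in shCDK12 cells, each above that of the other autosomes. They include regions whose counterpart fell below the cut of its own list. Against the full second list, 0 of 132 and 2 of 117 were lost. When regions up to 100 kb apart were joined, 206, 189 and 200 regions were left in the last 3 lists. Median widths over the 4 lists were then 70.0, 67.2, 55.6 and 73.2 kb, median gaps 529.6, 522, 515 and 444 kb and isolated shares 26.7%, 26.7%, 27.5% and 25.0%. The shares gained were 21.4% for OHT in shNT cells and 21.2% for silencing without OHT, each above that of the other autosomes. Isolation within 250 kb gave 29.96%, 22.1%, 21.7% and 18.2%, and within 1000 kb 8.50%, 7.06%, 6.12% and 4.99%.

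With a reciprocal overlap of 50%, the share lost was 9.72% for OHT in shNT cells, below that of the other autosomes. Gained and lost shares were 42.2% and 23.5% for silencing without OHT, 34.9% and 34.7% for silencing with OHT, and 36.1% and 33.3% for OHT in shCDK12 cells. These were above those of the other autosomes. With regions of at least 10 kb only, OHT in shCDK12 cells lost 6.02%, above the share on the other autosomes. In the alternatives chosen after seeing the data, regions with a score at or below the median gave shares gained of 48.6% for OHT in shNT cells, 40.5% and 25.4% for silencing without and with OHT and 32.6% for OHT in shCDK12 cells, and shares lost of 17.5% (other autosomes 11.3%), 25.5% and 12.9% for the last 3. Regions under 30 kb gave shares gained of 64.1% (51.5%) for OHT in shNT cells, 48.9% (46.2%) for silencing without OHT and 17.4% (19.6%) for OHT in shCDK12 cells. Shares lost were 6.90% (8.05%) for OHT in shNT cells, 37.2% (29.7%) for silencing with OHT and 25.6% (20.1%) for OHT in shCDK12 cells. Of the 40 shares gained that were counted, 2 were lower on the gene-poor chromosomes. These were low scores for silencing with OHT (25.4% against 29.2%) and widths under 30 kb for OHT in shCDK12 cells (17.4% against 19.6%). Wider bands were not in that count. At 30 to 60 kb the share was also lower for OHT in shNT cells (32.2% against 32.9%). The same held for silencing without OHT (26.5% against 27.1%) and with OHT (28.3% against 28.4%). For OHT in shCDK12 cells it was higher (35.5% against 28.4%).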
